A study of Mus musculus with 6 samples.

Results

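The collagen chains made by connective tissue outside cartilage were followed in mouse embryonic fibroblasts with and without Lasp1. Chains were taken as every gene whose symbol in the platform annotation reads Col, a number, a and a number, and the cartilage collagens (Col2a1, Col10a1 and all Col9 and Col11 chains) were set aside. Of 41 genes with such a symbol 34 remained, out of 19057 genes measured, and each was represented by its brightest probe. Col6a3, Col12a1, Col20a1 and Col21a1 were not analysed here. The wild-type group was 3 arrays of Lasp1+/+ fibroblasts and the knockout group 3 arrays of Lasp1-/- fibroblasts, both of the C57Bl/6NCr strain, and the labels name no treatment. LASP1 is an actin-binding protein of focal adhesions and the cell edge. The labels do not give the embryonic age, the passage, or the disrupted part of Lasp1, and do not say whether the arrays came from separate embryos or cultures, so a p-value here measures only how far these samples spread, and that spread may be technical.

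Collagens are secreted proteins whose alpha chains wind around each other into a triple helix, either from copies of 1 chain or from the products of several genes. Fibrillar collagens assemble into the tension-bearing fibrils of skin, tendon and bone, type IV collagens form the network of basement membranes, and FACIT collagens (fibril-associated collagens with interrupted triple helices) sit on the surface of fibrils. Fibroblasts are a main source of types I, III, V and VI, and each chain is hydroxylated, folded and exported from the endoplasmic reticulum before it is cleaved and crosslinked outside the cell.

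Values are deposited probe intensities on a linear scale with a median of 1000 on every array, and the lowest was 593, so a probe near 1000 is near the background light and its fold understates any change. Between 25.1% and 27.0% of probes exceeded 2000. Upper quartiles lay between 2018 (knockout replicate 2) and 2330 (wild type replicate 2), and arrays give no counts, so their number limits the precision. Lasp1 itself checked the labels: it fell by 1.50 ± 0.07 (SE) on the log2 scale, from a mean of 144104 to 50898, with every knockout array below every wild-type array (limma adjusted p = 1.17e-05). Over all genes, 418 rose and 778 fell at an adjusted p of 0.05, and with quantile normalization 1010 rose and 1085 fell, so the share of rises among calls moved from 34.95% to 48.2%. Fibroblast markers were bright: 10 of 10 lay above the median of all probes and the mean of 9 exceeded 2000. Of those 10 markers 6 fell (Pdgfrb, Thy1, Dcn, Lum, Twist1 and Twist2). Pdgfra was lower on every knockout array without passing the test, and Vim, Fap and Prrx1 overlapped between genotypes. The summed intensity of all 10 was 643430 to 771009 in wild type and 485727 to 532550 in knockout. In these bulk samples fewer cells of a type and less RNA per cell cannot be told apart.

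Among the 34 chains, 4 fell in knockout cells (Col1a2, Col6a2, Col26a1 and Col4a5), 2 rose (Col24a1 and Col23a1) and 28 did not pass the test. Over all genes 4.08% fell and 2.19% rose, and 6.28% changed in either direction; among genes brighter than the median of all probes, where 28 of the 34 chains lie, 9.94% changed. Knockout arrays all lay below wild-type arrays for 12 chains and above them for 4, against 14.0% and 7.34% of all genes, and the groups overlapped for 18. Of the 11985 genes brighter than the median, 2306 lay below and 1014 above in this way, together 27.7%. The median log2 difference (knockout minus wild type) was -0.11 over the chains, -0.02 over all genes and -0.06 over genes brighter than the median. The mean intensity exceeded 2000 in at least 1 group for 21 chains and in neither group for 13.

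The counts depended on single arrays. Without wild type replicate 3 the chains showed 0 rises and 1 fall, without knockout replicate 2 they showed 1 rise and 1 fall, and without knockout replicate 3 they showed 1 rise and 0 falls, while without wild type replicate 1 there were 2 rises and 9 falls and without wild type replicate 2 there were 4 of each. Counts over all genes moved too, from 418 rises and 778 falls with every array kept. In the order just listed, these omissions gave 207 and 304, 280 and 337, 219 and 244, 377 and 1217, and 729 and 709. With normexp background correction 1 chain rose and 0 fell at the same adjusted threshold, beside 222 and 316 of all genes. With the replicate number as a block in the fit 0 chains rose and 0 fell, beside 179 and 236 of all genes. Lost calls of single genes are listed below without that setting. With array weights 4 chains rose and 11 fell, beside 985 and 2282 of all genes. Col4a4 and Col7a1 were the added rises among the chains. Col1a1, Col5a1, Col5a3, Col6a1, Col8a2, Col14a1 and Col28a1 were the added falls. Without any of these changes, 3 chains were higher and 12 lower at an unadjusted limma p under 0.05. Of all 19057 genes 1079 were higher and 2469 lower at that threshold. Among the 11985 genes brighter than the median of all probes the counts were 998 and 2391. The sign of the difference of all 6 changed chains was the same in all 13 alternatives tried. Most of these could not have changed it. The groups of these chains did not overlap, so leaving out or weighting arrays cannot turn the sign. The replicate block, trended and robust eBayes and the restriction to genes above the median probe leave the difference itself unchanged.

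**Figure D1:**
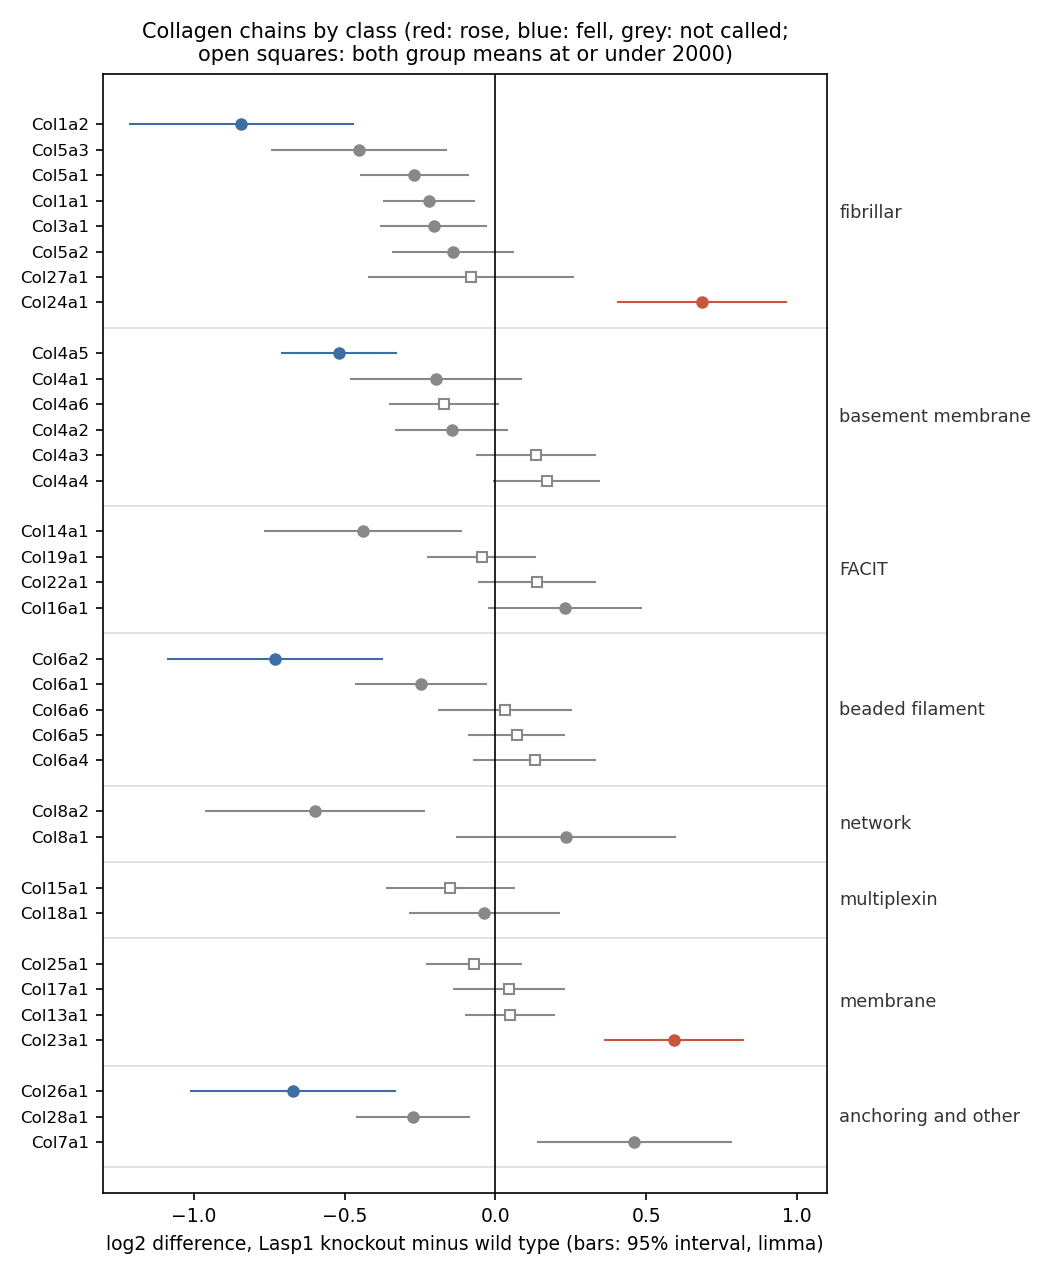
Log2 difference (knockout minus wild type) of each of the 34 collagen chains, grouped by class, with 95% confidence intervals from limma; red chains rose, blue chains fell, grey chains did not pass the test, and open squares mark chains whose group means are both at or under 2000. The 4 chains that fell lie in 4 different classes, and Col24a1 and Col23a1 are the 2 that rose.

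Fibrillar chains showed 1 fall and 1 rise among 8. Col1a2, which encodes the alpha 2 chain of type I collagen, the main collagen of skin, tendon and bone, fell by 0.84 ± 0.17 (SE) on the log2 scale, a 1.79-fold decrease. Col24a1, a minor fibrillar chain known from developing bone and cornea, rose by 0.69 ± 0.12, a 1.61-fold increase. The median of the class was -0.21, 7 of the 8 differences were negative, and the knockout arrays lay below the wild-type arrays for 5 chains and above them for 1. All 8 are brighter than the median of all probes. Of the 11985 such genes 7565 differences were negative, and 2306 genes lay below and 1014 above without overlap. Of all 19057 genes 11057 differences were negative.

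Intensities are given in the order of replicates 1, 2 and 3, and wild type 3 stands for wild type replicate 3. Col1a2 read 11950.0, 18818 and 14169 in wild type and 9492, 7008 and 8312 in knockout. The highest knockout array lay below the lowest wild-type array, and wild type replicate 2 was the highest of all. Group means were 14979 ± 3505 and 8271 ± 1243 (SD, n = 3 each; limma adjusted p = 0.0170). Col24a1 read 2322, 3127 and 2391 in wild type and 4576, 4215 and 3744 in knockout. All 3 knockout arrays exceeded the wild-type arrays, with means of 2613 ± 446 and 4178 ± 417 (SD, n = 3 each; limma adjusted p = 0.0122). The call of Col1a2 was lost when wild type 3, knockout 2 or knockout 3 was left out and with normexp (log2 -0.87, -0.73, -0.85 and -0.90; limma adjusted p = 0.0825, 0.0750, 0.0912 and 0.0614). That of Col24a1 was lost without either wild type 3 or knockout 2 and with normexp (log2 0.63, 0.68 and 0.86; limma adjusted p = 0.0808, 0.0550 and 0.0522).

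The promoters of these 2 chains, which moved in opposite directions, are shown as the 250 bases before the annotated start, from RefSeq (GRCm38.p6), 5′ to 3′ on the plus strand. Capitals mark matches, searched on both strands, to the letters CCAAT (the CCAAT box) and to the letters GGGCGG (the GC box). The TATA box was searched in the same way by the letters TATAAA. No 2 matches overlap.
Col1a2, chr6:4505368-4505617: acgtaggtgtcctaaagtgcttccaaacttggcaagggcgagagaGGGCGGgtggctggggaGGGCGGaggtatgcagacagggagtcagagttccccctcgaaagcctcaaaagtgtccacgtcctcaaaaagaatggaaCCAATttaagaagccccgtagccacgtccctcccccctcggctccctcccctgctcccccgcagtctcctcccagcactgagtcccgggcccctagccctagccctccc
Col24a1, chr3:145292222-145292471: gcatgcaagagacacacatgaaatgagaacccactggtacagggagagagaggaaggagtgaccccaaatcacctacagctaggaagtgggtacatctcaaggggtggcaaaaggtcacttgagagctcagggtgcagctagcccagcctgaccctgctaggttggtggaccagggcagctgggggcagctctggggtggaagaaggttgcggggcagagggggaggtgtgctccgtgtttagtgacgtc
The Col1a2 window holds a CCAAT box starting 109 bases before the start and GC boxes starting 205 and 188 bases before it, and none of the 3 motifs is in the Col24a1 window. Of 32851 RefSeq windows of the same length, 33.8% hold a CCAAT box, 32.7% a GC box and 12.4% a TATA box. RefSeq windows were matched for 28 of the 34 chains, 2 of them with more than 1 entry, and of these 30 windows 11, 19 and 3 hold the respective motif. A match is a description of the letters only.

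The partner of Col1a2 in type I collagen, Col1a1, read 265988, 270232 and 257649 in wild type and 223679, 233621 and 223781 in knockout. Its groups did not overlap, and its difference of -0.22 ± 0.07 did not pass the test (limma adjusted p = 0.102, 95% interval -0.37 to -0.07; 0.0421 with array weights). Col3a1, which forms homotrimeric fibrils beside type I in skin and vessels, read 8751, 8872 and 8455 in wild type and 6965, 8079 and 7612 in knockout. The knockout arrays were again the lower ones, with a difference of -0.21 ± 0.08 (limma adjusted p = 0.188).

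Type V chains join type I fibrils at their core and limit fibril diameter. Col5a1 read 240963, 273827 and 255741 in wild type and 220108, 219445 and 199785 in knockout, without overlap (-0.27 ± 0.08; limma adjusted p = 0.0918). Col5a3 read 1933, 2164 and 2297 in wild type and 1909, 1357 and 1448 in knockout, also without overlap (-0.45 ± 0.13; limma adjusted p = 0.0793). Knockout arrays were the lower ones for both, and neither passed the test, although Col5a3 did with quantile normalization, with trend and robust estimation, with array weights, and when wild type 1 or knockout 1 was left out (limma adjusted p = 0.0108, 0.0192, 0.00301, 0.0481 and 0.0121) and Col5a1 with array weights (0.0130). The groups overlapped for Col5a2, which read 5116, 4579 and 4255 in wild type and 4001, 4500.0 and 4126 in knockout (-0.14 ± 0.09, 95% interval -0.34 to 0.06). Col27a1, a fibrillar chain of cartilage and developing tissues, was near background, at 988, 1578 and 1102 in wild type and 1173, 1090.4 and 1135 in knockout.

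**Figure D2:**
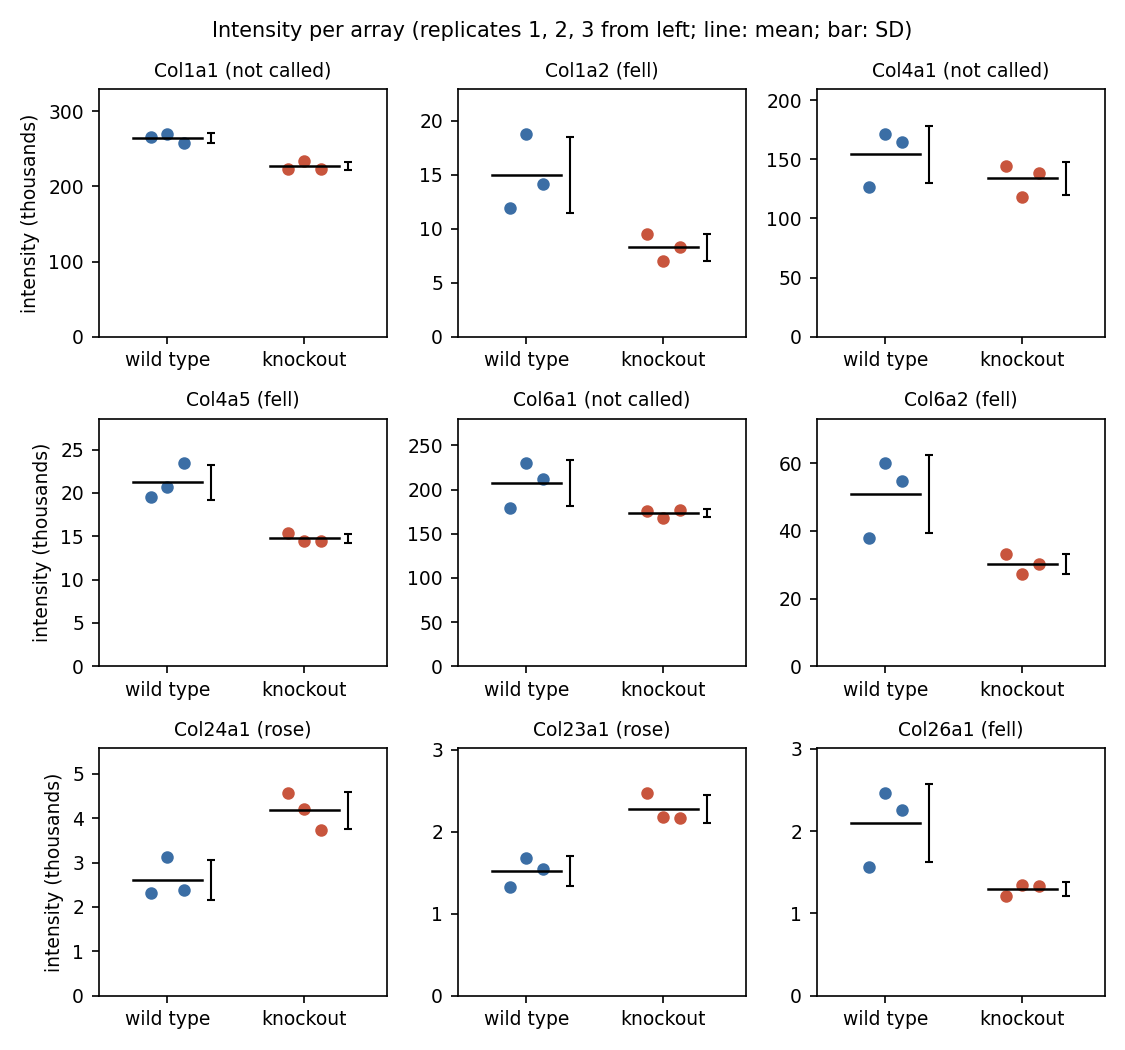
Probe intensity divided by 1000, on axes from 0, on each of the 3 wild-type (blue) and 3 knockout (red) arrays for the 6 collagen chains that passed the test and for Col1a1, Col4a1 and Col6a1, chains of the same collagen types; lines are group means and bars the SD. The knockout points of Col1a2, Col6a2, Col26a1 and Col4a5 lie below all wild-type points, those of Col24a1 and Col23a1 lie above them, and those of Col4a1 overlap them.

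Of the 6 type IV chains, the scaffold of basement membranes, Col4a5 fell and 5 did not pass the test. Col4a5, a chain of the specialised network of kidney and other basement membranes and the main gene of Alport syndrome, was the smallest of the falls at -0.52 ± 0.09 but had the lowest adjusted p of the chains. It read 19526, 20688 and 23444 in wild type and 15385, 14421 and 14478 in knockout. The groups were well apart, with means of 21219 ± 2012 and 14761 ± 541 (SD, n = 3 each; limma adjusted p = 0.00746). The call was lost without knockout replicate 3 and with normexp (log2 -0.51 and -0.54; limma adjusted p = 0.0542 and 0.106). A second bright Col4a5 probe read 13249, 10793 and 11672 in wild type and 11388, 11839 and 10189 in knockout, with overlapping groups and a difference of -0.09 ± 0.09 (limma adjusted p over all probes = 0.760). With the mean of both probes Col4a5 remained past the threshold at a smaller difference of -0.31 (limma adjusted p = 0.0317).

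Col4a1 and Col4a2 form the common type IV network of nearly all basement membranes. Col4a1 read 126374, 171711 and 164567 in wild type and 144463, 118530 and 138397 in knockout, with overlap and a difference of -0.20 ± 0.13 (95% interval -0.48 to 0.09). Col4a2 read 117855, 141398 and 124241 in wild type and 117165, 114410 and 114119 in knockout, without overlap but by a small margin (-0.15 ± 0.08; limma adjusted p = 0.427). These neighbours on chromosome 8 are transcribed in opposite directions, from starts that RefSeq places 21 bases apart. Col4a3 and Col4a4, which can share a trimer with Col4a5, lay near the background in both groups, between 844 and 1107. Col4a4 passed with array weights (log2 0.23, limma adjusted p = 0.0360). Col4a6, the neighbour of Col4a5 on the X chromosome, was also dim (1564, 1392 and 1506 in wild type and 1412, 1316 and 1239 in knockout; -0.17 ± 0.08).

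None of the 4 FACIT chains measured passed limma's test, and 1 of them had an unadjusted p under 0.05. That chain was Col14a1, which decorates fibrils of skin and tendon. It read 2415, 3581 and 3570.2 in wild type and 2159.7, 2443 and 2348 in knockout. Only knockout replicate 2, by a narrow margin, reached the wild-type range, and the difference was -0.44 ± 0.15 (limma adjusted p = 0.128). It passed with array weights and when wild type 1 was left out (log2 -0.55 and -0.63; limma adjusted p = 0.00579 and 0.00232). A second Col14a1 probe read 2254, 3327 and 3744 in wild type and 2036, 1839.5 and 1787 in knockout, without overlap (-0.69 ± 0.16; limma adjusted p over all probes = 0.0515). Col16a1, an adaptor between fibrils and cells, read 24933, 30519 and 24534 in wild type and 30687, 35117 and 27939 in knockout, and its groups overlapped (0.23 ± 0.11, 95% interval -0.03 to 0.48). Col19a1 and Col22a1 lay near the background. The median of the class was 0.05.

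Type VI chains, which build the beaded filaments around fibroblasts and muscle fibres, gave 1 fall among 5. Col6a2 fell by 0.73 ± 0.16 on the log2 scale, a 1.66-fold decrease. It read 37845, 60056 and 54638 in wild type and 33161, 27248 and 30089 in knockout, and every knockout array was below every wild-type array. Group means were 50846 ± 11581 and 30166 ± 2958 (SD, n = 3 each; limma adjusted p = 0.0270). Col6a1, its partner in the type VI monomer and its neighbour on chromosome 10, read 178910, 229980 and 212312 in wild type and 176247, 168127 and 176687 in knockout. The groups did not overlap there either, and the difference of -0.25 ± 0.10 did not pass (limma adjusted p = 0.207; 0.0285 with array weights and 0.0344 when wild type 1 was left out). Col6a4, Col6a5 and Col6a6, which can stand in for the third chain of the monomer, lay near the background, with differences of 0.13, 0.07 and 0.03. A second Col6a2 probe read 4066, 5704 and 5019 in wild type and 4393, 3602 and 4378 in knockout, with overlap and a difference of -0.25 ± 0.13. The call of Col6a2 was lost when wild type 3, knockout 2 or knockout 3 was left out, with normexp and with the mean of both probes (log2 -0.66, -0.66, -0.73, -0.74 and -0.49; limma adjusted p = 0.146, 0.115, 0.129, 0.10 and 0.104).

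The chains of the remaining classes gave 1 rise and 1 fall, both on dim probes. Col23a1, a transmembrane collagen that is shed from the cell surface, rose by 0.59 ± 0.10 on the log2 scale. It read 1321, 1684 and 1543 in wild type and 2477, 2179 and 2171 in knockout, with every knockout array above every wild-type array (means 1516 ± 183 and 2276 ± 175, SD, n = 3 each; limma adjusted p = 0.00997). Its call was lost without either wild type 3 or knockout 3 (log2 0.61 and 0.62; limma adjusted p = 0.0546 and 0.0503). A second, dimmer Col23a1 probe differed by 0.22 ± 0.08 (limma adjusted p over all probes = 0.226). With the mean of both probes Col23a1 passed at a smaller difference of 0.40 (limma adjusted p = 0.0228). The other membrane chains, Col13a1, Col17a1 and Col25a1, overlapped between genotypes near the background, and the brightest of them, Col17a1, a hemidesmosome protein of epidermis, read 1098, 1124 and 1119 in wild type and 1148, 1260.1 and 1049 in knockout.

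Col26a1, a short collagen first described in testis and ovary, fell by 0.67 ± 0.15. It read 1568, 2467 and 2259 in wild type and 1205, 1346 and 1337 in knockout, with means of 2098 ± 470.2 and 1296 ± 79.0 (SD, n = 3 each; limma adjusted p = 0.0317). The knockout arrays were close together and below all wild-type arrays, while the other 2 probes of Col26a1 were near the background and differed by 0.11 and -0.06. The call was lost without wild type replicate 3 or any 1 of the 3 knockout replicates, with normexp and with the mean of all 3 probes (log2 -0.60, -0.62, -0.70, -0.69, -1.10 and -0.21; limma adjusted p = 0.167, 0.0832, 0.0922, 0.128, 0.0533 and 0.147).

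Col7a1, which forms the anchoring fibrils under the epidermis, read 7925, 9597 and 7433 in wild type and 14060.5, 9758 and 10726 in knockout. Knockout replicate 1 was far above the rest and knockout replicate 2 only just above the wild-type range, and the difference of 0.46 ± 0.14 did not pass (limma adjusted p = 0.107), although it did with quantile normalization, with array weights, and when wild type 2 was left out (0.00168, 0.00873 and 0.0291). A second, dimmer Col7a1 probe had means of 1440 in wild type and 1445 in knockout (0.00 ± 0.16). With the mean of both probes the difference was 0.23 (limma adjusted p = 0.508). Col28a1, a chain known from the basement membranes around Schwann cells, read 2214, 2627 and 2418 in wild type and 1972, 1922 and 2102 in knockout, without overlap (-0.27 ± 0.08; limma adjusted p = 0.103, 0.0261 with array weights and 0.0454 when wild type 1 was left out).

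The short-chain network collagens of type VIII, found in vessels and under the corneal endothelium, differed in sign. Col8a2 read 9311, 15375 and 12696 in wild type and 7483, 8916 and 7864 in knockout. The knockout arrays were the lower ones without overlap, and the difference of -0.60 ± 0.16 missed the threshold (limma adjusted p = 0.0661), and passed it with quantile normalization, trend and robust estimation, array weights, the mean of all probes, and when wild type 1 was left out (limma adjusted p = 0.0263, 0.0189, 0.00290, 0.0490 and 0.00261). A second Col8a2 probe, dimmer, read 1718, 2281 and 2002 in wild type and 1404, 1269 and 1402 in knockout and passed it (-0.55 ± 0.10; limma adjusted p over all probes = 0.0201). Col8a1 read 17613, 25651 and 16542 in wild type and 26209, 22565 and 20555 in knockout, with overlapping groups (0.23 ± 0.16, 95% interval -0.13 to 0.60). When wild type 2 was left out the difference was 0.43 and passed (limma adjusted p = 0.0366). The multiplexins, basement membrane collagens whose ends can be cleaved off as soluble fragments, overlapped between genotypes: Col18a1, the source of endostatin, read 23436, 28523 and 23969 in wild type and 23075, 28322 and 22719 in knockout (-0.04 ± 0.11, and 0.06 with quantile normalization), and Col15a1 read 1396, 1638 and 1720.2 in wild type and 1366, 1529 and 1381 in knockout (-0.15 ± 0.09).

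Side by side, basement membrane chains had a median difference of -0.16, network chains -0.18, multiplexins -0.09, beaded filament chains 0.03 (-0.49 over Col6a1 and Col6a2, the 2 above the median of all probes), membrane chains 0.05 and the anchoring and other chains -0.27, beside -0.21 for fibrillar and 0.05 for FACIT chains and -0.02 for all genes. These medians are over 2 to 8 chains and carry no test.

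**Figure D3:**
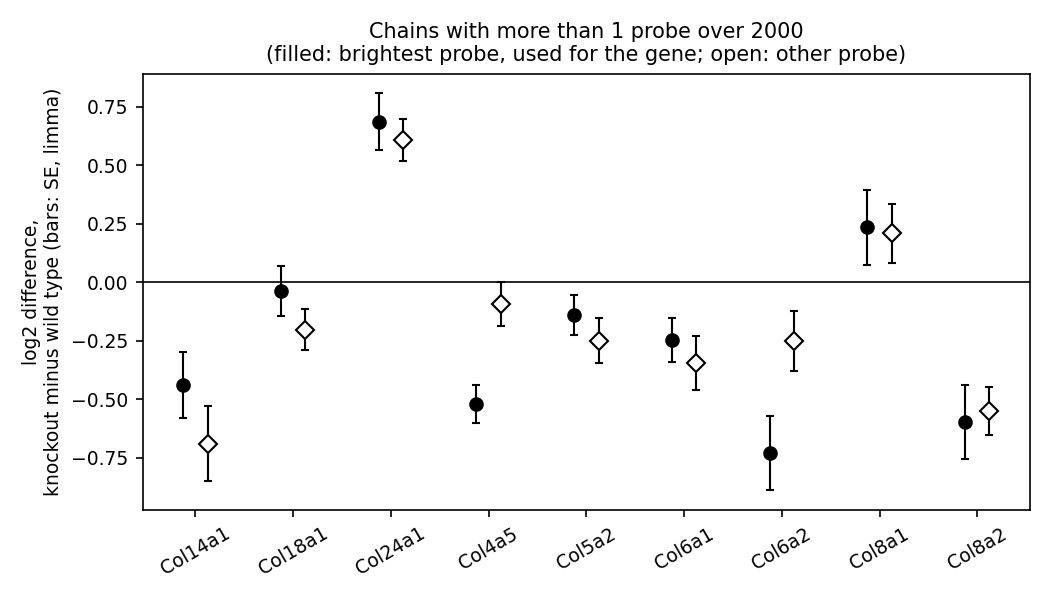
Log2 difference (knockout minus wild type, with its SE from limma) of each probe over 2000 for the 9 collagen chains that have more than 1 such probe; filled points are the brightest probe, used for the gene, and open points the other probe. Both Col24a1 probes over 2000 lie well above 0 and both such Col8a2 probes well below it, while the second probes of Col4a5 and Col6a2 lie nearer to 0 than the first.

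Chains that assemble into the same molecule, or are alternative chains of 1 type, were compared directly within each array, which cancels differences in overall brightness. The 6 pairs were chosen after the chains' values had been seen, and intensities of different probes were not set against each other, only their changes. Relative to its own wild-type mean, the log2 ratio of Col1a2 to Col1a1 was -0.31, 0.32 and -0.02 in wild type and -0.39, -0.89 and -0.58 in knockout. Every knockout array was the lower one, and the difference was -0.62 ± 0.23 (SE, n = 3 each; two-sided exact permutation p = 0.1, adjusted over the 6 pairs 0.2). That p is the smallest that 3 against 3 allows, so no pair could pass 0.05.

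The ratio of Col6a2 to Col6a1 was -0.20, 0.11 and 0.09 in wild type and -0.36, -0.58 and -0.51 in knockout on the same scale. Groups did not overlap, with a difference of -0.48 ± 0.12 (exact permutation p = 0.1, adjusted 0.2). With the mean of all probes of each chain it was -0.21. The ratio of Col8a2 to Col8a1 gave -0.24, -0.06 and 0.30 in wild type and -1.13, -0.66 and -0.71 in knockout. This was the widest of the 6 gaps, at -0.83 ± 0.22 (exact permutation p = 0.1, adjusted 0.2).

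The groups overlapped for the other 3 pairs. Col4a5 over Col4a1 differed by -0.32 ± 0.13 (exact permutation p = 0.2, adjusted 0.3) and, with the mean of all probes, by -0.11. Col4a2 over Col4a1 differed by 0.05 ± 0.12 (exact permutation p = 0.6, adjusted 0.6). Col5a2 over Col5a1 differed by 0.13 ± 0.13 (exact permutation p = 0.4, adjusted 0.48).

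**Figure D4:**
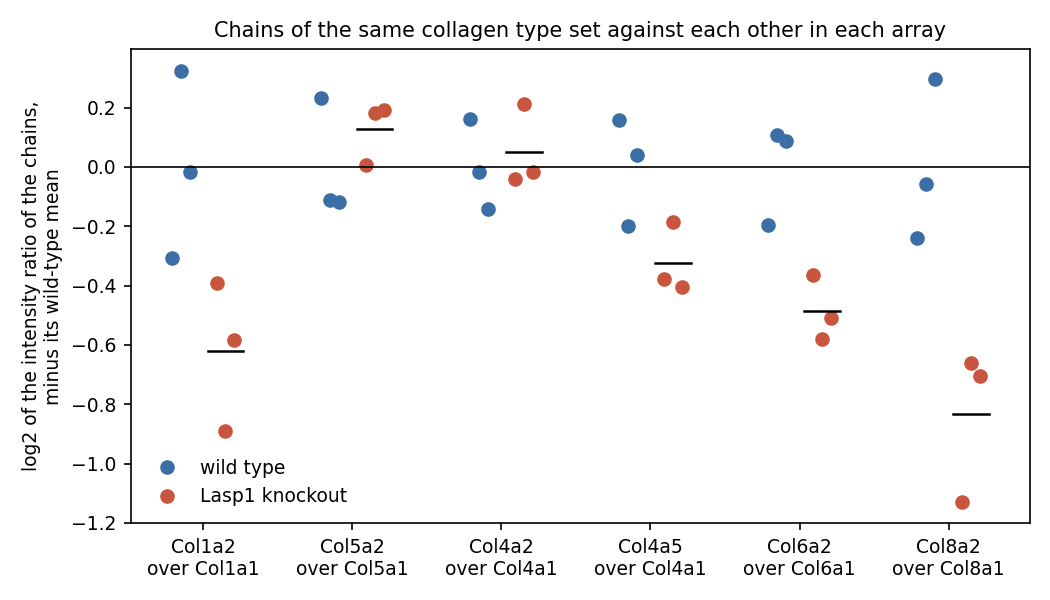
Log2 ratio of paired collagen chains on each array, relative to the wild-type mean of that ratio, for 6 pairs with 3 wild-type and 3 knockout arrays each. Knockout points lie below all wild-type points for Col1a2 over Col1a1, Col6a2 over Col6a1 and Col8a2 over Col8a1, and the groups overlap for the other 3 pairs.

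Beside the chains stand the genes that make, export, process and bind collagen: 103 genes measured of 111 listed, in 8 lists. Of these 6 rose and 11 fell, against 2.19% and 4.08% of all genes. Of the 103 genes 90 were brighter than the median of all probes, and of all 11985 such genes 415 rose and 776 fell. Leaving out wild type 3, knockout 2 or knockout 3 brought the number of falls in the lists down to 5, 7 and 4 respectively. With normexp 2 list genes rose and 6 fell. Among 19 enzymes and chaperones of modification and folding, 1 rose and 1 fell (with quantile normalization 2 and 3), and both are catalytic subunits of prolyl 4-hydroxylase, the enzyme whose hydroxyprolines stabilise the helix. P4ha2 rose by 0.37 ± 0.09. It read 24512, 29153 and 24762 in wild type and 33317, 35612 and 31926 in knockout, without overlap (limma adjusted p = 0.0450). P4ha3 fell by 0.50 ± 0.10. It read 4511, 4454 and 5146 in wild type and 3586, 2880.1 and 3519 in knockout, also without overlap (limma adjusted p = 0.0209). The third subunit, P4ha1, differed by 0.13 and the shared beta subunit P4hb by -0.05 (0.01 with quantile normalization), neither past the test, and Serpinh1, the collagen chaperone HSP47, by -0.25 ± 0.08 (limma adjusted p = 0.121). With the mean of all probes P4ha1 passed at 0.37 (limma adjusted p = 0.0235), and Serpinh1 passed with that setting, with quantile normalization and with array weights (limma adjusted p = 0.0149, 0.0352 and 0.0166). P4ha3 lost its call when wild type 3, knockout 2 or knockout 3 was left out and with normexp (limma adjusted p = 0.115, 0.0677, 0.0725 and 0.111), and P4ha2 without any 1 array other than wild type replicate 2, with normexp, with trend and robust estimation, and with the mean of all probes (limma adjusted p from 0.0747 to 0.273).

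None of the 14 genes of collagen export from the endoplasmic reticulum, the 7 of procollagen processing and the 10 receptors passed limma's test. With quantile normalization 1 export gene rose and 2 fell. At an unadjusted p under 0.05 there were 1 rise and 3 falls in export, 1 rise in processing and 0 among receptors. Of all 19057 genes 1079 were higher and 2469 lower at that threshold. The nearest to the threshold was Creb3l1, a transcription factor that activates collagen secretion genes in osteoblasts and fibroblasts, which read 3075, 3741 and 4189.8 in wild type and 2873, 2390.2 and 2696 in knockout (-0.46 ± 0.12; limma adjusted p = 0.0567). It passed under 5 of the 13 alternatives (quantile normalization, genes above the median, trend and robust estimation, array weights, and wild type 1 left out; limma adjusted p = 0.0139, 0.0497, 0.0348, 0.00223 and 0.00836). Bmp1, the procollagen C-proteinase, differed by -0.12 (95% interval -0.42 to 0.18) and the collagen-binding integrin chain Itga11 by -0.07 (95% interval -0.31 to 0.17).

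Of 5 crosslinking enzymes 1 rose. It was Tgm2, a transglutaminase that links matrix proteins through glutamine and lysine, at 7242, 8941 and 7211 in wild type and 19549.6, 18842 and 16327 in knockout (1.23 ± 0.11; limma adjusted p = 0.000254). The groups were far apart, and the call held in all 13 alternatives tried. The lysyl oxidases, which start the covalent crosslinks of fibrillar collagen, did not move past the test: Lox differed by 0.05 (95% interval -0.13 to 0.23) and Loxl1 by -0.00 (95% interval -0.19 to 0.18; 0.06 with quantile normalization).

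Among 14 genes of degradation 2 rose and 2 fell. The collagenase Mmp13 rose by 1.25 and the collagenolytic cathepsin Ctsk fell by 1.23, while of the metalloproteinase inhibitors Timp1 rose by 0.57 and Timp3 fell by 0.55. Timp3 read 78395, 86585 and 80406 in wild type and 63338, 58036 and 47534 in knockout. Its groups did not overlap (limma adjusted p = 0.0174), and the call was lost when wild type 3, knockout 2 or knockout 3 was left out (limma adjusted p = 0.0848, 0.0560 and 0.0588) and with normexp or the mean of all probes (limma adjusted p = 0.130 and 0.0557). Timp1 lost its call with normexp (limma adjusted p = 0.0873). The gelatinase Mmp2 and the membrane collagenase Mmp14 differed by 0.29 and -0.25 with overlapping groups.

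Fibril partners, a list of elastin (Eln) and of proteoglycans and glycoproteins that bind collagen fibrils, gave the most calls of the lists: 7 of 15 fell and 1 rose. The 4 largest falls were Dpt (-1.12), Comp (-1.05), Eln (-0.83), the core protein of elastic fibres, and Fmod (-0.83), a small leucine-rich proteoglycan that controls fibril growth. Lum (-0.80), Postn (-0.77) and Dcn (-0.64) also fell. Eln read 30299, 46496 and 39712 in wild type and 20860.5, 21579 and 22019.5 in knockout. Fmod read 6776, 11013 and 9860.5 in wild type and 5266, 5029 and 4930.1 in knockout. Knockout arrays were below wild-type arrays for both (limma adjusted p = 0.00749 and 0.0141). The small proteoglycan Bgn differed by -0.03 (95% interval -0.23 to 0.16), and Ogn rose by 0.49. Eln lost its call without either wild type 3 or knockout 3 (limma adjusted p = 0.0563 and 0.0512), and Fmod also without knockout replicate 2 (0.0899, 0.0883 and 0.0599). The number of falls went down to 4 without wild type replicate 3 and to 3 without knockout replicate 3, and Ogn lost its call when wild type 3, knockout 1 or knockout 2 was left out (limma adjusted p = 0.0702, 0.0531 and 0.0766) and with normexp (limma adjusted p = 0.163). Lum lost its call without either wild type 3 or knockout 3 and with normexp (limma adjusted p = 0.0660, 0.0835 and 0.0590). Dcn lost it without knockout replicate 3, with normexp and with the mean of all probes (limma adjusted p = 0.0768, 0.0833 and 0.0581). Dcn and Lum are also among the 6 fibroblast markers that fell.

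Of 19 regulators of collagen genes 1 rose and 1 fell. Scx, a transcription factor of tendon cells that activates type I collagen genes, fell by 0.58 ± 0.12. It read 9445, 12099.5 and 10419 in wild type and 7897, 6024 and 7434 in knockout, without overlap (limma adjusted p = 0.0232), and the call was lost when wild type 3, knockout 2 or knockout 3 was left out and with normexp (limma adjusted p = 0.104, 0.0795, 0.0900 and 0.115). Ccn2, the matricellular connective tissue growth factor, rose by 0.56 ± 0.07 (limma adjusted p = 0.00218), a call lost with normexp (0.0756). Tgfb1, the best known inducer of collagen genes, read 6399.5, 8762 and 8411 in wild type and 6379, 4193 and 4672 in knockout, without overlap (-0.64 ± 0.17; limma adjusted p = 0.0564). It passed under 6 of the 13 alternatives (quantile normalization, genes above the median, trend and robust estimation, array weights, and wild type 1 or knockout 1 left out; limma adjusted p = 0.00467, 0.0436, 0.0130, 0.00170, 0.0150 and 0.0149). Its receptors Tgfbr1 and Tgfbr2 differed by 0.01 and -0.16.

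**Figure D5:**
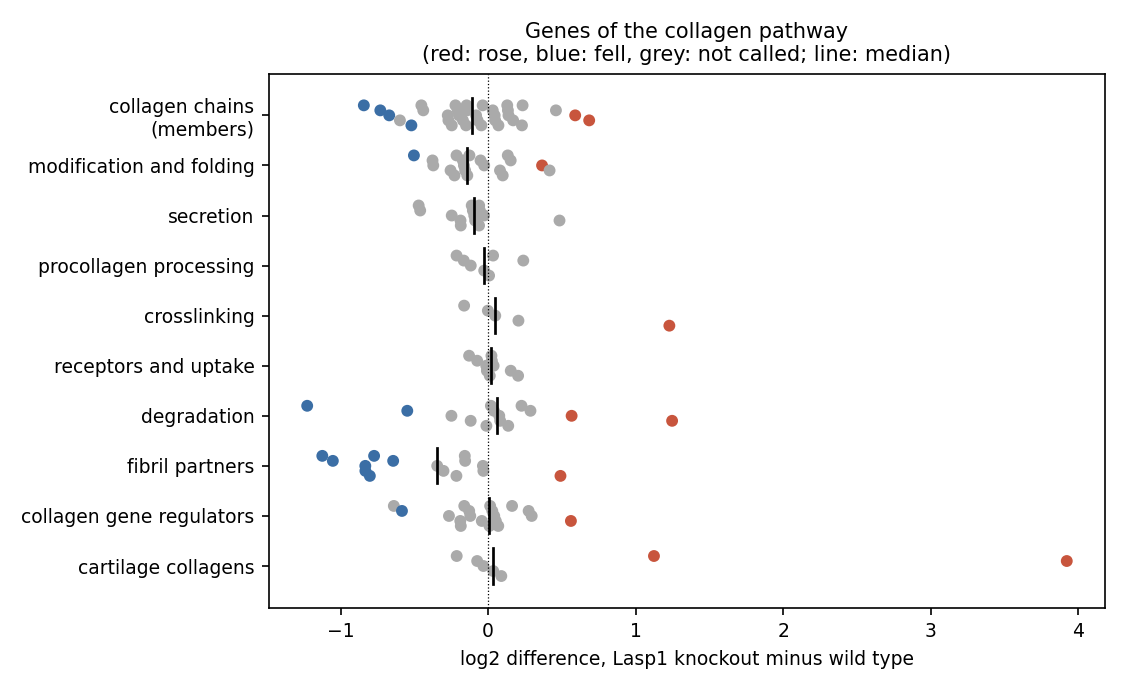
Log2 difference (knockout minus wild type) of the 34 collagen chains, of every measured gene of the 8 lists and of the 7 cartilage collagens, 1 point a gene, with rises in red, falls in blue, genes that did not pass in grey and the median of each row as a line. Fibril partners hold 7 falls and 1 rise among 15 genes, and secretion, procollagen processing and receptors hold no coloured point.

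The cartilage collagens set aside from the chains gave rises alone: 2 of 7 rose, Col2a1 by 3.92 and Col10a1 by 1.12 on the log2 scale, and 0 fell (limma; 2 rises and 1 fall at an unadjusted p of 0.05). The other 5 differed by -0.21 to 0.09 and lay near the background. Col2a1 read 1213, 1182 and 1225 in wild type and 22349.6, 15372 and 17859 in knockout, the largest difference of the 41 collagen genes.

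Markers of other cells moved beside these results, and their part in them was not tested. The summed epithelial markers were 20965 to 25993 in wild type and 9252 to 9496 in knockout, with 7 of 7 measured, 1 over 2000 (Krt14) and 2 fallen (Krt14 and Krt8), and Epcam, Cdh1 and Krt5 near background. Cldn4 and Krt18 were higher on every knockout array without passing the test (0.31, limma adjusted p = 0.0590; 0.18, limma adjusted p = 0.246). The summed chondrocyte markers were 49654 to 57506 and 55312 to 64148, with 8 of 8 measured, 2 over 2000, Col2a1 risen and Sox9 fallen; Acan, Matn1, Hapln1 and Cnmd were at background. Summed adipocyte markers were 8925 to 9784 and 5806 to 6083 (4 of 5 measured, Adipoq fallen). Fabp4 and Plin1 lay near background, and Pparg did not pass the test. Skeletal muscle markers summed to 10071 to 11754 and 19593 to 20654 (4 of 5 measured, Acta1 risen from a mean of 4546 to 12873). Myod1 and Myog lay near background, and Des was higher on every knockout array without passing (0.22, limma adjusted p = 0.201). Summed leukocyte markers were 7914 to 9193 and 10714 to 11328 (5 of 6 measured, Lyz2 risen, Ptprc near background), endothelial markers 9070.1 to 9589 and 9851 to 10489.9 (7 of 7 measured, Emcn risen, Pecam1 and Cdh5 near background, and Tek lower on every knockout array without passing, at -0.29, limma adjusted p = 0.0765), smooth muscle markers 519238 to 538611 and 562759 to 588219 (4 of 4 measured, Tagln risen) and osteoblast markers 3944 to 4052.5 and 4463 to 4842 (4 of 6 measured, Ibsp risen, Sp7 and Bglap near background).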

How the data were processed

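RNA of mouse embryonic fibroblasts was labelled as cRNA and hybridised to bead arrays made by Illumina (per the labels' protocols). What the authors deposited is 1 linear intensity per probe and array, with a median of 1000 on each of 6 arrays; how the background was handled is not given in the sources used here. Of 45281 probes, 34885 had 1 gene symbol in the platform annotation, 18 had several and 10378 had none, and only the first kind was used. The probe with the highest mean log2 value stood for each of 19057 genes, and the Entrez identifiers of 34 of 34 chains carry the same symbol in RefSeq. Chains were matched on that annotation, from 73 probes, 22 chains having more than 1.

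Genotype was the only term of a limma fit to the log2 values (limma 3.58.1, R 4.3.3; lmFit, then eBayes; degrees of freedom 4 residual and 5.13 prior). Two-sided p-values were corrected over the 19057 genes by the Benjamini-Hochberg method at a threshold of 0.05; "rose" and "fell" mean past it. Chain pairs used an exact permutation test. Classes and lists were described by counts and medians. Array values were printed for chains past the test, the 2 brightest of each class and chains sharing a molecule, with others added to show overlap; from each list genes past the test were named, at most 4 each way, and other genes of the pathway were named after their values had been seen. The chains, lists and rules were chosen with earlier results of these data known. The fit was tested on simulated data. Alternatives were array weights (statmod 1.5.0), quantile normalization, normexp with an offset of 50, averaging a gene's probes, trended and robust eBayes, genes above the median probe, the replicate number as a block, and each array left out.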

Additional observations from a re-analysis of the deposited data

How the results depend on the processing

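Of the results recomputed under 13 alternatives none reversed its direction as a called result. Leaving out 1 array could not reverse a called gene whose groups do not overlap. Quantile normalization gave 1010 rises over all genes, 10 rises in the pathway lists, 5 calls in the classes other than fibrillar, basement membrane and FACIT (the other classes) and a fibrillar median of -0.14. Normexp gave 222 rises and 316 falls over all genes, 1 and 0 among the chains, 2 and 6 in the lists, and 0 fibrillar, 0 basement membrane and 1 other call. Array weights gave 985 and 2282 over all genes, 4 and 11 among the chains, 10 and 24 in the lists, and 5 fibrillar, 2 basement membrane, 1 FACIT and 7 other calls. The mean of all probes moved the pairs Col4a5 over Col4a1 to -0.11 and Col6a2 over Col6a1 to -0.21. The cause of these shifts was not tested. Leaving out 1 array gave 207 to 729 rises and 244 to 1217 falls over all genes, 0 to 4 and 0 to 9 among the chains, 4 to 9 and 4 to 16 in the lists, and 0 to 3 fibrillar, 0 to 1 basement membrane, 0 to 1 FACIT and 0 to 6 other calls. Class medians then ran from -0.25 to -0.18 (fibrillar), -0.19 to -0.09 (basement membrane), 0.02 to 0.07 (FACIT) and -0.04 to 0.02 (other). Pairs ran from -0.78 to -0.46 for Col1a2 over Col1a1, -0.58 to -0.43 for Col6a2 over Col6a1, -0.95 to -0.68 for Col8a2 over Col8a1, -0.42 to -0.24 for Col4a5 over Col4a1, -0.03 to 0.13 for Col4a2 over Col4a1 and 0.07 to 0.24 for Col5a2 over Col5a1, and Lasp1 from -1.55 to -1.48. Chains near 1000 are limited by background light.

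With the replicate number as a block, 179 genes rose and 236 fell, 0 chains rose and 0 fell (0 fibrillar, 0 basement membrane and 0 other calls), and 3 list genes rose and 7 fell. Above, lost calls of single genes are listed without this setting. Correlations of same-numbered arrays' deviations from their group means were -0.41, -0.34 and 0.22. That of wild type 2 with knockout 1 was 0.47 and that of wild type 1 with knockout 2 was 0.40. The remaining ones lay between -0.15 and 0.01. Deviations cancel within a group, so these correlations cannot settle how the samples pair. Whether the numbers mark a pairing was not tested.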
